A study of Mus musculus with 35 samples.

Results

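The comparison described here is the ageing of gastrocnemius muscle, the large calf muscle, in mice labelled as PGC-1α knockouts (mKO), from 3 to 24 months of age. It rests on 11 of the 35 RNA-seq libraries of the study: 5 mKO libraries at 3 months and 6 at 24 months. All animals were male, each library was made from total RNA of bulk muscle, and the series gives 5 to 6 biological replicates per condition. The libraries were chosen by their column names in the deposited table, MKO_ followed by a number at 3 months and MKO_SO_ followed by a number at 24 months. That SO stands for 24 months was inferred from the group sizes, because it marks 6 of the 11 mKO columns and the sample labels list 6 old and 5 young knockouts. For reference the study also holds wild-type muscle (WT, 6 libraries at each age) and muscle labelled PGC-1α transgenic (mTG, 6 libraries at each age, the columns with the prefix MCK). The labels do not give the strain, the promoter that drives the transgene or a Cre recombinase, the deleted exons, or whether the knockout is limited to muscle fibres.

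PGC-1α is the protein product of Ppargc1a. It does not bind DNA itself but docks on nuclear receptors such as the estrogen-related receptors and thereby raises the expression of genes for mitochondrial respiration, fatty acid oxidation and, in muscle, slow-fibre and neuromuscular junction programmes. It is induced by exercise. Ageing muscle loses mass and strength, its nerve-muscle contacts become unstable, and its fibres re-express genes that are otherwise seen after denervation.

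Values are TPM (transcripts as parts of a fixed library total) per gene, which are corrected for transcript length, scaled between libraries by median of ratios. They are called scaled TPM below. Changes with age are differences of log2(scaled TPM + 1), 24 minus 3 months, with their standard error (SE); the added 1 understates the change of genes with low values. A gene is said to rise or fall where its adjusted p from limma, fitted over all 35 libraries and 12399 genes, was under 0.05. The 5 values of the young group are always given in the order MKO_3247, MKO_3248, MKO_3251, MKO_3259, MKO_3265, and the old group by its lowest, median and highest library.

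Among the 12399 genes tested, 752 rose with age in mKO muscle (6.07% of them) and 615 fell (4.96%). One young library, MKO_3259, stood apart from the other 10. Its mean correlation with its own group was 0.956, against 0.972 to 0.977 for the other young and 0.979 to 0.983 for the old mKO libraries, and limma's estimated array weight for it was 0.108, against 0.622 to 1.82. In this library the level relative to the mean of all 35 libraries fell with transcript length (Spearman rho -0.486 over 10876 genes), whereas rho was 0.117 to 0.27 in the other 10. Without MKO_3259, 648 genes rose (5.23%) and 542 fell (4.37%), and 509 and 407 of these were also called with all 11 libraries. Counts of list members are therefore also given without it.

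The muscle labels held in all 11 libraries: the summed level of 15 muscle identity genes such as Ckm, Acta1 and Myh4 was 132600 to 252600 scaled TPM at 3 months, highest in MKO_3259, and 125500 to 137600 at 24 months. Ppargc1a itself did not check the knockout label. It measured 7.51, 10.5, 4.45, 5.01 and 8.8 scaled TPM in the young mKO libraries and 6.28, 7.53 and 10.7 in the old ones, and the groups overlapped. The change was 0.19 ± 0.20 (adjusted p = 0.6). Wild-type muscle measured 8.14 ± 4.08 and 4.22 ± 0.415 scaled TPM (mean ± SD) at 3 and 24 months, and the mKO means were 7.25 ± 2.53 and 8.19 ± 1.72, while the transgenic libraries measured 107 ± 6.2 and 90.3 ± 15.1. The gene value sums all transcripts of Ppargc1a, whichever exons are deleted, and libraries are called mKO by their label.

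Short and ribosomal RNA made up far more of the old than of the young libraries. Nuclear rRNA genes took 0.231% ± 0.0451 of all TPM (mean ± SD) at 3 months and 5.25% ± 3.20 at 24 months. The young libraries lay at 0.213, 0.233, 0.206, 0.195 and 0.308%, and the old ones between 1.85 and 10.4%, lowest in MKO_SO_70 and highest in MKO_SO_23, with no overlap. The difference of the mean log2 shares was 4.29 (adjusted exact permutation p = 0.00346 over 8 classes, 2-sided; 0.002165 is the smallest raw p that 5 against 6 libraries allow). Mitochondrial rRNA rose from 0.167% ± 0.0301 to 1.70% ± 0.992, small nuclear RNA from 0.00264% ± 0.000595 to 0.0445% ± 0.0297, genes annotated as miRNA loci from 0.0483% ± 0.0118 to 1.07% ± 0.571 and other small RNA from 0.0242% ± 0.00806 to 0.684% ± 0.373, each with the same p and with no overlap. Small nucleolar RNA rose from 0.00522% ± 0.00119 to 0.0176% ± 0.00759 (adjusted exact permutation p = 0.00577).

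**Figure D1:**
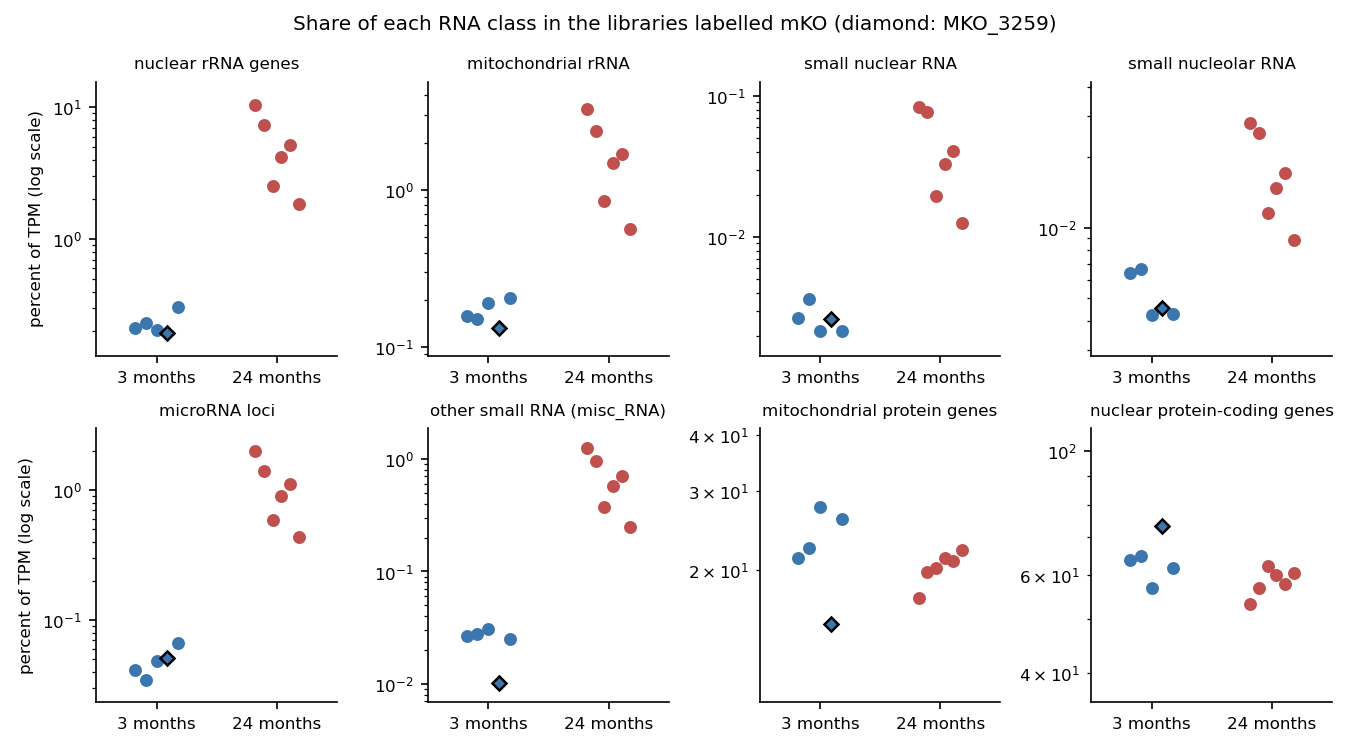
Percent of all TPM in 8 classes of RNA, on a log axis, in each of the 5 young and 6 old mKO libraries, with 1 point per library and a diamond for MKO_3259. The rRNA, small nuclear, small nucleolar, miRNA and other small RNA panels show every old library above every young one, whereas the 2 panels of protein-coding genes overlap between ages.

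The single genes behind these classes rose by the largest amounts in the table. Rn7s1, a copy of the RNA of the signal recognition particle, measured 32, 26.1, 35.2, 75.8 and 35.6 scaled TPM at 3 months and 1640.5, 4431 and 10257 at 24 months, a change of 6.74 ± 0.49 (adjusted p = 1.2e-11). The 5S rRNA gene n-R5s100 was listed at 0 in 4 young libraries and at 4.34 in MKO_3259, against 176, 892 and 1618 in the old ones. Both are members of families with identical copies, so the counts of single members are uncertain. Gm24245, annotated as a miRNA locus, measured 2.2, 0, 1.21, 0 and 1.53 at 3 and 25.4, 105 and 211 at 24 months. The rRNA gene Gm24089 measured 0.902, 1.05, 0, 0 and 0.67 in the young libraries and 0, 1063 and 4018 in the old ones, listed at 0 in MKO_SO_85 and MKO_SO_87. Its old libraries thus overlapped the young ones.

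Because every old library had a larger rRNA share than every young one, age and rRNA share cannot be told apart in these libraries. With the log2 nuclear rRNA share as a covariate, 14 genes rose and 9 fell. The protein-coding classes moved less. Mitochondrially encoded protein genes took 22.5% ± 4.83 of TPM at 3 months and 20.3% ± 1.66 at 24 months (difference of log2 shares -0.12, adjusted exact permutation p = 0.450). MKO_3259 had the lowest share, 15.2%, against 21.2 to 27.6% in the other young libraries, and without it the difference was -0.26 and passed the threshold. Nuclear protein-coding genes took 64.0% ± 6.03 and 58.4% ± 3.20 (-0.13, adjusted exact permutation p = 0.0841), and this difference passed without MKO_3251, at -0.17.

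Lars2, which encodes the mitochondrial leucyl-tRNA synthetase, was the protein-coding gene with the largest rise, but its value is uncertain. It measured 39.2, 41.5, 51, 55.5 and 61 scaled TPM at 3 months and 537, 1356 and 3243 at 24 months, 4.69 ± 0.35 on the log2 scale (adjusted p = 2.1e-11), with no overlap. The 6 old libraries had the same order for Lars2 as for the nuclear rRNA share, from MKO_SO_70 to MKO_SO_23. A stretch of 72 bases of its longest transcript, at 98.6% identity, is also in Gm15564, a non-coding gene on another chromosome. Gm15564 moved with it, from 10.8, 9.87, 9.05, 7.07 and 11.6 to 121, 255 and 878 scaled TPM. The part of these sequences in the values was not tested.

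Genes known from denervated muscle rose with age in mKO. Of 19 tested members of the list, 10 rose and 1 fell (9 and 1 without MKO_3259), with a median change of 0.54 (0.39 without that library) against -0.01 over all genes tested. Those that rose included 2 subunits of the muscle acetylcholine receptor, the receptor's clustering kinase and an embryonic myosin. The promoters of the 2 receptor subunits are shown because E-box sequences, which myogenic factors bind, lie close to their start sites. Capitals mark each match to CANNTG on either strand (N is any base) in the 250 bases before and 50 after the RefSeq start (GRCm38.p6). Chrna1 lies at chr2:73580289-73580588 and Chrnb1 at chr11:69795888-69796187, both on the minus strand and printed 5′ to 3′.
Chrna1: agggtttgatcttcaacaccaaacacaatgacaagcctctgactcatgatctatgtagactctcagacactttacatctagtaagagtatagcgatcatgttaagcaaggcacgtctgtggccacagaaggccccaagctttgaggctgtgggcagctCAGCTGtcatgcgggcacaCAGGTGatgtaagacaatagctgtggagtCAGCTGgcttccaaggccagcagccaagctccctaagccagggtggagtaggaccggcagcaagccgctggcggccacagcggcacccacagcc
Chrnb1: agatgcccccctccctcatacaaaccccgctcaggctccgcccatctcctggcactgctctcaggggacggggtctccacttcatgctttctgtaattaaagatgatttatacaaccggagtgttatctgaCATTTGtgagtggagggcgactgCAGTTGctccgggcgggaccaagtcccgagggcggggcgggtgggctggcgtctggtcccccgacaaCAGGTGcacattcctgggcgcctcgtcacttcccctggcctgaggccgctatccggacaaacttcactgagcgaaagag
Each of the 2 windows holds 3 matches, a number that 17.6% of the 32851 RefSeq promoter windows reach, and 72.3% hold at least 1. In Chrna1, 2 of the 3 read CAGCTG, and 16.3% of all windows hold at least 1 CAGCTG. These are matches of letters only.

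Chrna1, the α1 subunit, measured 3.04, 3.33, 2.45, 2.82 and 3.18 scaled TPM at 3 months and 5, 7.89 and 8.7 at 24 months. Every old library lay above every young one. The change was 1.08 ± 0.15 (adjusted p = 6.3e-06; 1.06 without MKO_3259). Chrnb1, the β1 subunit, measured 15.6, 14.5, 10.9, 12.3 and 16 at 3 and 23.2, 26.2 and 29.5 at 24 months, again with no overlap. It changed by 0.88 ± 0.09 (adjusted p = 1.4e-08). The embryonic myosin heavy chain Myh3 rose from 0.933 ± 0.294 to 3.05 ± 0.881 scaled TPM (mean ± SD), by 1.05 ± 0.14 (adjusted p = 3.8e-06). Runx1, a transcription factor induced by loss of innervation, rose by 0.62 ± 0.10 from a low level of 0.316 ± 0.0488 to 1.02 ± 0.115 (adjusted p = 5.6e-05).

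Krt18, an intermediate filament protein, had one of the widest spreads. It measured 0.179, 0.148, 0.093, 0.527 and 0.09 scaled TPM at 3 months and 1.53, 5.16 and 15 at 24 months. The young group was near 0 with MKO_3259 highest, and MKO_SO_85 and MKO_SO_70 were far above the other old libraries. The change was 2.53 ± 0.31 (adjusted p = 5.9e-07). Ankrd1, a stress-responsive ankyrin repeat protein of the sarcomere, rose from 3.26 ± 1.43 to 12.5 ± 2.65 scaled TPM (1.70 ± 0.28, adjusted p = 5.9e-05). Members outside the naming rule, chosen after their values were seen, were Musk, the clustering kinase, and Actc1, the cardiac α-actin. Musk changed by 0.56 ± 0.17 (adjusted p = 0.0283) and lost its call without MKO_3259 (0.39, adjusted p = 0.13), and also without MKO_3247 or MKO_SO_68. Actc1 was the member that fell, from 702, 441, 135, 849 and 848 to 95.1, 161 and 204 scaled TPM (-1.76 ± 0.35, adjusted p = 7.4e-04), with MKO_3251 inside the old range. The ε subunit gene Chrne (-0.22 ± 0.19, adjusted p = 0.5) and Rapsn, which anchors the receptor (-0.02 ± 0.10, adjusted p = 0.946), did not pass.

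**Figure D2:**
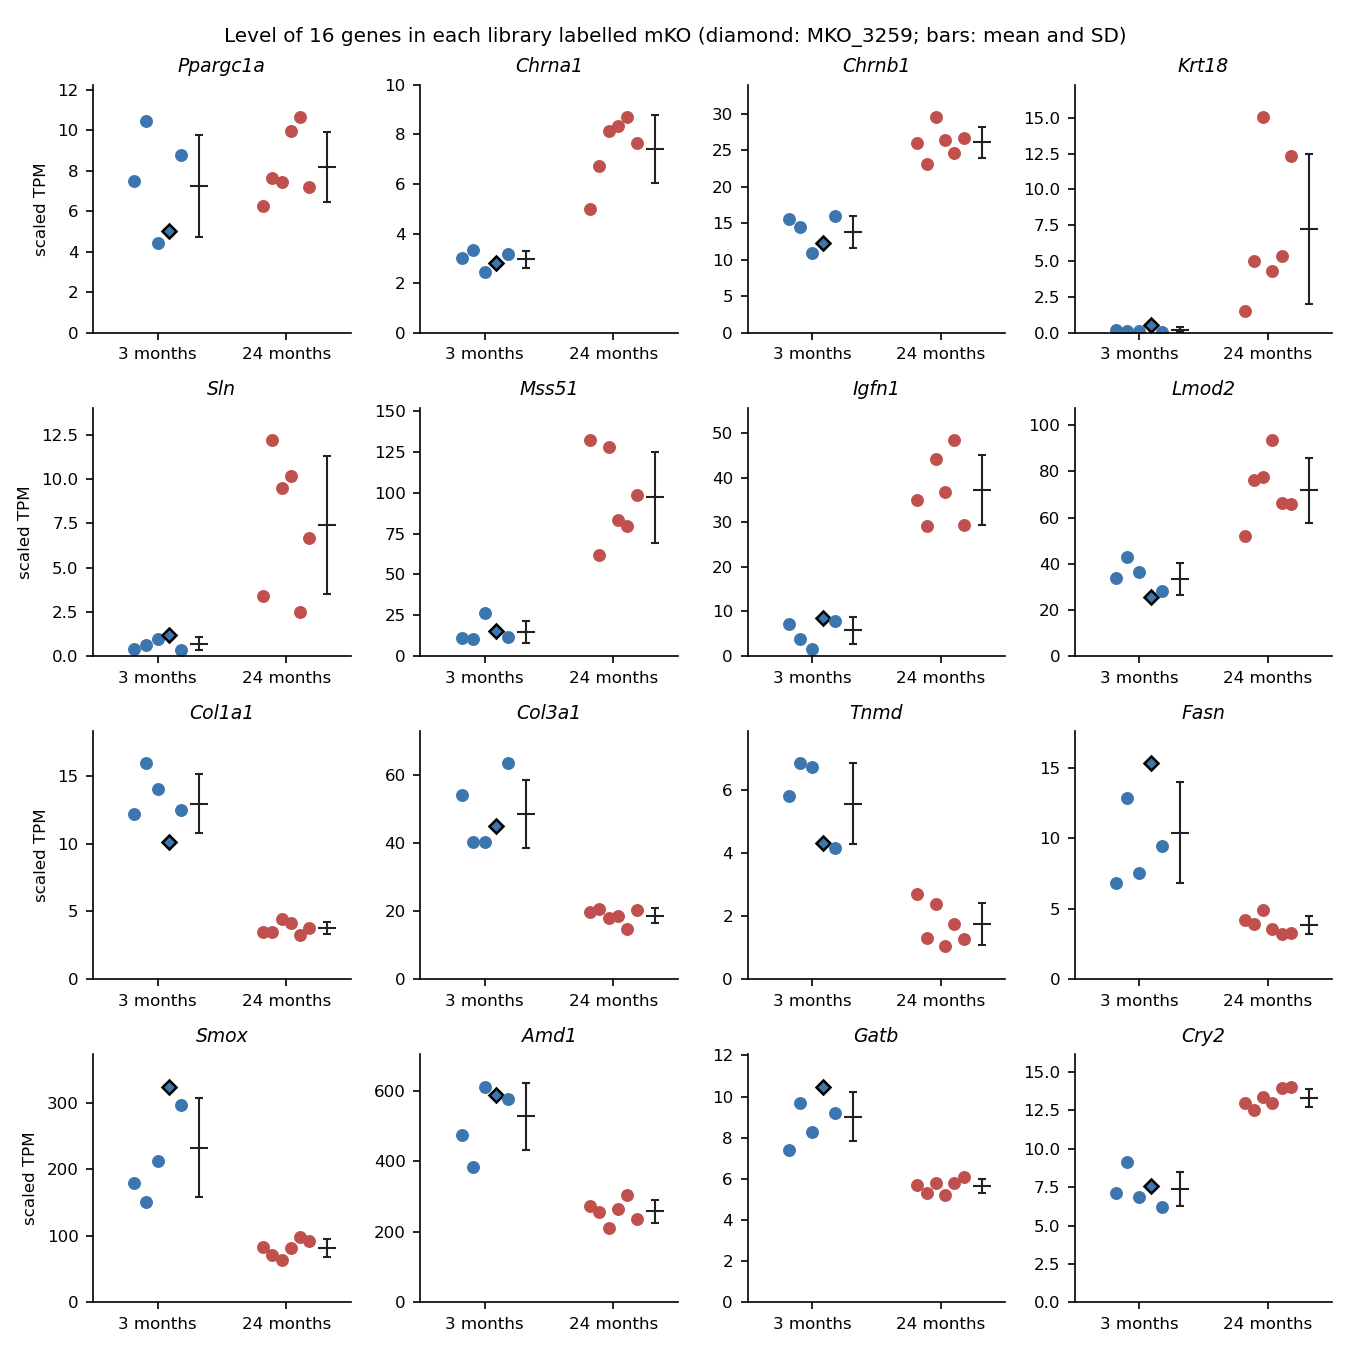
Scaled TPM of 16 genes in each mKO library at 3 months (blue) and 24 months (red), with the mean and SD of each group beside the points and a diamond for MKO_3259. Ppargc1a overlaps between the ages, and in every other panel the 2 groups are apart, the old one higher for Chrna1, Chrnb1, Krt18, Sln, Mss51, Igfn1, Lmod2 and Cry2 and lower for Col1a1, Col3a1, Tnmd, Fasn, Smox, Amd1 and Gatb.

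Of 7 tested genes of Schwann cells, which wrap nerve fibres, 2 fell and none rose (1 and 0 without MKO_3259). Among them was Pmp22, a myelin protein of peripheral nerve (-0.66 ± 0.14, adjusted p = 0.00234). The summed level of the 7 genes was 31.2 to 83.4 scaled TPM at 3 and 26.1 to 34.4 at 24 months. In bulk muscle, fewer cells of a type and less RNA per cell cannot be told apart.

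Slow-fibre genes were higher in old mKO muscle. Of 14 tested, 7 rose and none fell (6 and 0 without MKO_3259), all 14 changes were positive, and the median was 0.60 (0.59 without that library) against -0.01 over all genes. The risers were thin-filament, myosin light chain and Z-disc genes and regulators of the sarcoplasmic reticulum calcium pump, whereas the slow myosin heavy chain gene Myh7 did not pass (0.11 ± 0.32, adjusted p = 0.88). Lmod2, which elongates thin filaments, measured 33.9, 42.7, 36.5, 25.5 and 28.4 scaled TPM at 3 and 51.9, 71.2 and 93.5 at 24 months. The ages did not overlap, and MKO_3259 was lowest. Lmod2 changed by 1.08 ± 0.20 (adjusted p = 3.2e-04). Myl2, the slow regulatory light chain, rose from 379 ± 56.2 to 657 ± 66.2 (0.80 ± 0.25, adjusted p = 0.0313) with no overlap, but was called in only 4 of the 11 fits that left out 1 mKO library; it was lost without MKO_3247, MKO_3251, MKO_3265, MKO_SO_32, MKO_SO_85, MKO_SO_87 or MKO_SO_70. Myoz2, the slow isoform of the Z-disc protein myozenin, rose by 0.63 ± 0.18 (adjusted p = 0.0206).

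Sln and Pln, small peptides that inhibit the calcium pump, rose. Sln (sarcolipin) measured 0.374, 0.626, 0.979, 1.17 and 0.352 scaled TPM at 3 and 2.48, 8.09 and 12.2 at 24 months. Its old libraries spread widely, and the lowest of them was above MKO_3259, the highest young one. It changed by 2.17 ± 0.32 (adjusted p = 1.5e-05). Pln (phospholamban) measured 0.704, 2.38, 0.94, 0.957 and 1.45 at 3 and 4.45, 5.67 and 6.11 at 24 months, with no overlap, and changed by 1.55 ± 0.25 (adjusted p = 4.2e-05). Its transcript shares 1376 of 2334 bases at 99.1% identity with Gm47644 and overlaps Cep85l, so part of its reads may be theirs. Casq2, the slow and cardiac isoform of the calcium buffer calsequestrin, rose by 0.56 ± 0.13 (adjusted p = 0.003) with overlap of the groups. Over 23 genes of calcium handling 7 rose and 1 fell (5 and 2 without MKO_3259), and the median was -0.09. Fast-fibre genes showed 0 rises and 1 fall among 15, with a median of -0.30, and without MKO_3259 1 rise, 0 falls and a median of -0.08. Without MKO_3248 there were 3 falls. The faller, Myl1, also lost its call without MKO_3247, MKO_3265, MKO_SO_23, MKO_SO_32, MKO_SO_85, MKO_SO_87 or MKO_SO_68.

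Several sarcomere and stress-related genes outside these lists were among the 15 largest rises. Mss51, a muscle regulator of mitochondrial respiration, measured 10.8, 10.2, 26.6, 15 and 11.6 scaled TPM at 3 months and 61.9, 91 and 132 at 24 months. MKO_3251 was the highest young library and still lay below the lowest old one. It changed by 2.67 ± 0.33 (adjusted p = 5.2e-07). Igfn1, a Z-disc-associated immunoglobulin-domain protein, measured 7.26, 3.72, 1.54, 8.43 and 7.91 at 3 and 29.2, 35.9 and 48.4 at 24 months, a change of 2.62 ± 0.27 (adjusted p = 2.3e-08). Here too no old library reached down to a young one.

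The giant sarcomere protein titin, Ttn, measured 128, 133, 122, 73 and 128 at 3 and 181, 255 and 386 at 24 months, and rose by 1.17 ± 0.17 (adjusted p = 1.4e-05), or by 1.01 without MKO_3259, its lowest library by far. Hspb7, a small heat shock protein of muscle, rose from 55.3 ± 4.32 to 135 ± 9.4 scaled TPM (1.28 ± 0.16, adjusted p = 9.5e-07). Mib1, an E3 ubiquitin ligase of Notch signalling, rose from 22.5 ± 4.11 to 71.6 ± 11.6 (1.64 ± 0.17, adjusted p = 1.4e-08). Kcnab1, a potassium channel subunit, had the smallest adjusted p among the named protein-coding genes (1.39 ± 0.09, adjusted p = 3.2e-12), with 2.57, 2.68, 2.49, 2.06 and 1.64 scaled TPM at 3 and 6.51, 7.12 and 10.1 at 24 months. Cpne2 (1.67 ± 0.23), Cyfip2 (1.60 ± 0.17), Rrad (1.46 ± 0.29) and Ttc9 (1.32 ± 0.12) completed the largest rises, with adjusted p between 1.9e-09 and 7.1e-04 and no overlap of the groups.

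Collagens and other matrix genes fell. Of 25 tested, 22 fell and none rose (21 and 0 without MKO_3259), all 25 changes were negative, and the median was -0.67 (-0.73 without that library). Leaving out each of the 11 libraries in turn gave 20 to 22 falls. The type I collagen genes fell most among the fibrillar chains, followed by type III, and the chains of types VI and IV fell less. The promoter of Col1a2 is shown because its CCAAT sequences lie near the start of a gene whose groups were far apart; capitals mark each match to CCAAT on either strand, at chr6:4505368-4505667 on the plus strand (GRCm38.p6, RefSeq).
Col1a2: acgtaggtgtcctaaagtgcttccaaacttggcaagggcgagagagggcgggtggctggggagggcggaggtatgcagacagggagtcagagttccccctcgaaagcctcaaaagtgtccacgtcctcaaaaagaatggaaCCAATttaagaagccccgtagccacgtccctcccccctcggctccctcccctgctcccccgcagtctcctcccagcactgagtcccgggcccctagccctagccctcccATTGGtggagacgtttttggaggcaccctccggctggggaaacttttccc
It holds 2 matches, and 37.4% of all promoter windows hold at least 1. Among the 16 falling matrix genes with a promoter entry, 5 hold a match.

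Col1a1, the α1 chain of type I collagen, measured 12.2, 15.9, 14.1, 10.2 and 12.5 scaled TPM at 3 months and 3.27, 3.65 and 4.47 at 24 months. Even the lowest young library, MKO_3259, was above the highest old one. The change was -1.54 ± 0.14 (adjusted p = 1.0e-09). Col1a2 measured 25.8, 33.7, 30.5, 18.1 and 24.4 at 3 and 6.35, 8.33 and 10.6 at 24 months (-1.52 ± 0.16, adjusted p = 2.5e-08). Col3a1, the type III chain, measured 54.1, 40.3, 40.3, 45.2 and 63.4 at 3 and 14.9, 19.1 and 20.7 at 24 months (-1.32 ± 0.15, adjusted p = 8.1e-08). The ages were apart for both. Col6a1 fell from 12.3 ± 0.668 to 6.62 ± 0.347 scaled TPM (-0.80 ± 0.07, adjusted p = 5.7e-10), with a spread so small that its adjusted p was lower than that of Col1a1. Sparc, a collagen-binding matricellular protein, fell from 81 ± 11.6 to 42 ± 2.52 (-0.92 ± 0.10, adjusted p = 2.1e-08). The matrix genes that did not pass were Lum (-0.01 ± 0.11), Bgn (-0.20 ± 0.15) and Postn (-0.11 ± 0.22), with adjusted p of 0.97, 0.438 and 0.805; they are named for being the exceptions.

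Of 17 enzymes and chaperones that process collagen, 6 fell and none rose (5 and 0 without MKO_3259). Serpinh1, the collagen chaperone HSP47, fell from 18.2 ± 3.06 to 10 ± 1.65 (-0.80 ± 0.16, adjusted p = 6.1e-04), and Adamts2, which removes the N-propeptide, changed by -0.44 ± 0.06 (adjusted p = 2.0e-06). The others were Loxl2, Pcolce, Plod1 and Ppib, with changes from -0.24 ± 0.07 for Plod1 to -0.52 ± 0.12 for Pcolce. Ppib lost its call without MKO_3251, MKO_3259, MKO_SO_23, MKO_SO_32, MKO_SO_85, MKO_SO_87, MKO_SO_68 or MKO_SO_70. Among 14 genes of matrix degradation Mmp2 (gelatinase A, -0.61 ± 0.14) and Ctsk (cathepsin K, -0.41 ± 0.13) fell. Ctsk was called in 3 of the 11 fits with 1 library left out, being lost without MKO_3247, MKO_3248, MKO_3251, MKO_3265, MKO_SO_32, MKO_SO_87, MKO_SO_68 or MKO_SO_70.

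Markers of the cells that make matrix were lower as well. Of 9 tenocyte (tendon cell) markers tested 6 fell and none rose (7 and 1 without MKO_3259), with a median of -1.02, and their summed level was 52.4 to 95.4 scaled TPM at 3 and 27.4 to 41.1 at 24 months. Of 12 markers of fibro-adipogenic progenitors, the resident stromal cells of muscle, 10 fell and none rose (8 and 0), with a median of -0.48 and sums of 406.9 to 566.8 and 270.2 to 318.6. The tenocyte genes Comp, Fmod, Tnmd, Thbs4 and Chad are also in the matrix list. The part of these cells in the collagen result was not tested. Tnmd, tenomodulin, measured 5.83, 6.84, 6.73, 4.3 and 4.15 scaled TPM and 1.05, 1.52 and 2.7, and Kera, keratocan, 4.39, 4.71, 3.62, 2.34 and 2.69 at 3 and 0.23, 0.494 and 0.674 at 24 months. Both were apart between the ages, with changes of -1.27 ± 0.19 (adjusted p = 2.4e-05) and -1.60 ± 0.15 (adjusted p = 3.8e-09). The small proteoglycan Fmod and the cartilage matrix protein Chad changed by -1.68 ± 0.26 and -1.72 ± 0.29 (adjusted p = 3.3e-05 and 1.2e-04). The young libraries differed for these genes: MKO_3259 and MKO_3265 were the lowest for Tnmd, Fmod, Chad and Kera. The tendon transcription factor Scx did not pass with all libraries (0.37 ± 0.16, adjusted p = 0.143). Among progenitor markers Cd248 fell from 3.04 ± 0.451 to 1.61 ± 0.16 (-0.62 ± 0.08, adjusted p = 2.6e-06), Dpt changed by -0.64 ± 0.12 (adjusted p = 4.3e-04) and Cd34 by -0.49 ± 0.10 (adjusted p = 9.4e-04).

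Several adipocyte and fat synthesis genes were lower in old mKO muscle. Of 9 adipocyte markers tested 5 fell and none rose (4 and 0 without MKO_3259), with a median of -0.82; the count was 3 without MKO_3248, MKO_3251, MKO_SO_23, MKO_SO_85, MKO_SO_87, MKO_SO_68 or MKO_SO_70. The summed level of the 9 markers was not lower at 24 months, at 1396 to 3218 scaled TPM (median 2754) at 3 and 2699 to 3298 (median 2983) at 24 months. Cfd, adipsin, measured 15.7, 33.7, 19.5, 61.4 and 28.9 scaled TPM at 3 and 3.79, 7.49 and 11 at 24 months. MKO_3259 was the highest library and the groups did not overlap. Cfd changed by -1.88 ± 0.39 (adjusted p = 0.00145), or by -1.61 without MKO_3259. In MKO_3259 Cfd (61.4) and the marker Fabp4 (243) were small parts of the sum of 3218, so other members set it. The list also holds Car3, and the part of each member in the sum was not tested. Plin1, which coats lipid droplets of adipocytes, changed by -0.82 ± 0.27 (adjusted p = 0.045) and Pnpla3 by -1.14 ± 0.28 (adjusted p = 0.00702), whereas Adipoq did not pass (-0.66 ± 0.30, adjusted p = 0.157). Cyp2e1, a cytochrome P450, had the largest fall among the named protein-coding genes. It measured 4.26, 9.65, 4.05, 12.2 and 5.32 at 3 and 0.42, 0.985 and 1.32 at 24 months, with no overlap and MKO_3259 highest (-1.95 ± 0.37, adjusted p = 4.9e-04).

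Of 22 genes of lipid droplets and fat storage 5 fell and none rose (4 and 0 without MKO_3259), with a median of -0.13; the falls were 3 without MKO_3248, MKO_3251, MKO_3265, MKO_SO_68 or MKO_SO_70. Fasn, the fatty acid synthase, is shown with its promoter because 3 CCAAT matches lie in it, 2 of them overlapping; 3 or more occur in 3.37% of all windows. Capitals mark the matches, at chr11:120824498-120824797 on the minus strand (GRCm38.p6, RefSeq), printed 5′ to 3′.
Fasn: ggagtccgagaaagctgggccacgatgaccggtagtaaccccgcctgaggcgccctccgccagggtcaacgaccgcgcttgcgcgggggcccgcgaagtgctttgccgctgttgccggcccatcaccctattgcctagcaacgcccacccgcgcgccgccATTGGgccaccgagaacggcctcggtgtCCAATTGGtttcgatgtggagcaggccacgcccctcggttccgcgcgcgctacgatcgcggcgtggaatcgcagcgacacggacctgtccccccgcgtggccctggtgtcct
Fasn measured 6.85, 12.9, 7.56, 15.3 and 9.49 scaled TPM at 3 months and 3.25, 3.73 and 4.92 at 24 months. MKO_3259 and MKO_3248 were highest, and no old library reached the lowest young one. It changed by -1.19 ± 0.33 (adjusted p = 0.0183), and by -1.04 without MKO_3259, which was not called (adjusted p = 0.0583). The stearoyl-CoA desaturases Scd1 and Scd2, which share a stretch of 623 bases at 95.5% identity, changed by -1.25 ± 0.38 and -1.28 ± 0.18 (adjusted p = 0.0291 and 8.5e-06). Scd1 measured 13.1, 36.8, 21, 11.5 and 22 at 3 and 4.62, 7.54 and 10.7 at 24 months, with MKO_3248 far above the rest, and its call was lost without MKO_3248, MKO_3251, MKO_3265, MKO_SO_68 or MKO_SO_70.

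Polyamine genes made up another group with falls at high levels. Of 11 tested 3 fell and 1 rose, and without MKO_3259 also 3 and 1, with Azin1 passing in place of Odc1. Smox, spermine oxidase, measured 179, 151, 213, 324 and 296 scaled TPM at 3 and 63.3, 83 and 98.9 at 24 months. The young libraries ranged widely, with MKO_3259 highest, and all were above the old ones. Smox changed by -1.45 ± 0.26 (adjusted p = 2.4e-04). Amd1, which makes the aminopropyl donor for spermidine and spermine, measured 473, 385, 612, 589 and 578 at 3 and 210.0, 261 and 305 at 24 months, and changed by -1.02 ± 0.19 (adjusted p = 4.0e-04). Its transcript matches Amd2 at 99.6% identity over 3202 of 3204 bases, so the split between them is uncertain. Odc1, ornithine decarboxylase, changed by -0.51 ± 0.15 (adjusted p = 0.0283) and lost its call without MKO_3259, MKO_3251, MKO_3265 or MKO_SO_32. Oaz2, an inhibitor of ornithine decarboxylase, rose by 0.24 ± 0.06 (adjusted p = 0.0111).

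Few nuclear genes of mitochondrial respiration passed, and the share of falls in complex I was near the 4.96% of all genes tested that fell. Of 35 complex I genes 2 fell and none rose, all 35 changes were negative, and the median was -0.20. Without MKO_3259 none passed and the median was -0.03. Of 41 genes of complexes II to V none passed in either fit, with medians of -0.20 and -0.06. With all libraries 39 of the 41 changes were negative. MKO_3259 had the highest summed levels of these 2 lists, 12620 and 29070 scaled TPM; the young medians were 6816 and 15790 and the old medians 6592 and 15060. The called complex I genes included Ndufs1 (-0.24 ± 0.08, adjusted p = 0.0433). Without MKO_3248 7 complex I genes and 5 of the other complexes fell. Without MKO_3247 there were 4 falls in complexes II to V. Ndufs1 was not called without MKO_3251, MKO_3259, MKO_3265, MKO_SO_23, MKO_SO_32, MKO_SO_85, MKO_SO_87 or MKO_SO_68.

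Among genes of mitochondrial translation, which the study's title names, falls were about as frequent as over all genes tested, of which 4.96% fell. Of 82 mitochondrial ribosomal protein genes 4 fell and none rose, with a median of -0.14; without MKO_3259 2 fell and the median was -0.01. The falls were 7 without MKO_3248, 1 without MKO_3251 or MKO_SO_23, and 2 without MKO_SO_85 or MKO_SO_70. Mrpl42 measured 225, 189.6, 301, 326 and 229 scaled TPM at 3 and 175, 180.4 and 192 at 24 months, so that MKO_3248 lay inside the old range; it changed by -0.46 ± 0.11 (adjusted p = 0.00439). Of 52 translation factors and tRNA enzymes Lars2 rose and 3 fell (1 and 2 without MKO_3259), with a median of -0.10. Gatb, a subunit of the enzyme that makes mitochondrial glutaminyl-tRNA, measured 7.42, 9.68, 8.29, 10.5 and 9.21 at 3 and 5.24, 5.75 and 6.07 at 24 months. No old library reached a young one, and the change was -0.58 ± 0.11 (adjusted p = 3.5e-04; -0.53 without MKO_3259). Mto1, which modifies mitochondrial tRNA, changed by -0.36 ± 0.07 (adjusted p = 6.8e-04), and Rmnd1 by -0.34 ± 0.10 (adjusted p = 0.0298), not called without MKO_3251, MKO_3259, MKO_SO_23 or MKO_SO_32.

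Of 17 genes of the TCA cycle 5 fell and none rose, with a median of -0.20; the falls were 3 without MKO_3259, 2 without MKO_3251 and 9 without MKO_3248. Sucla2, a succinyl-CoA ligase subunit, changed by -0.30 ± 0.06 (adjusted p = 7.5e-04) and Pcx, pyruvate carboxylase, by -0.48 ± 0.11 (adjusted p = 0.00506). None of 25 fatty acid oxidation genes passed, with or without MKO_3259 (medians -0.11 and -0.06). Of 26 genes of glycolysis and glycogen 6 fell and 3 rose, and without MKO_3259 2 fell and 3 rose. Pgam2, the muscle phosphoglycerate mutase, measured 1540.0, 1359, 1464, 3148 and 1524 scaled TPM at 3 months and 1123, 1207 and 1235 at 24 months. MKO_3259 alone was far above the rest, and without it the change of -0.53 ± 0.15 became -0.31 (adjusted p = 0.0217 and 0.0978). Gbe1, the glycogen branching enzyme, rose by 0.60 ± 0.09 (adjusted p = 1.2e-05) and Pgm1 changed by -0.39 ± 0.08 (adjusted p = 0.00159), both also without MKO_3259.

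The list of estrogen-related receptors and PGC-1 partners gave 4 rises and no fall among 17 tested, with a median of 0.06. The counts were 2 and 0 without MKO_3259, MKO_3247, MKO_SO_32, MKO_SO_87 or MKO_SO_68. Ppargc1b, the related coactivator PGC-1β, rose from 1 ± 0.241 to 2.12 ± 0.388 scaled TPM (0.64 ± 0.11, adjusted p = 2.3e-04), with no overlap. The transcription factor Mef2c rose by 0.39 ± 0.09 (adjusted p = 0.00547). Esrrg and Esrrb, estrogen-related receptors, changed by 0.55 ± 0.17 and 0.32 ± 0.10 (adjusted p = 0.03 and 0.0358), and both lost their call without MKO_3259, among other libraries.

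**Figure D3:**
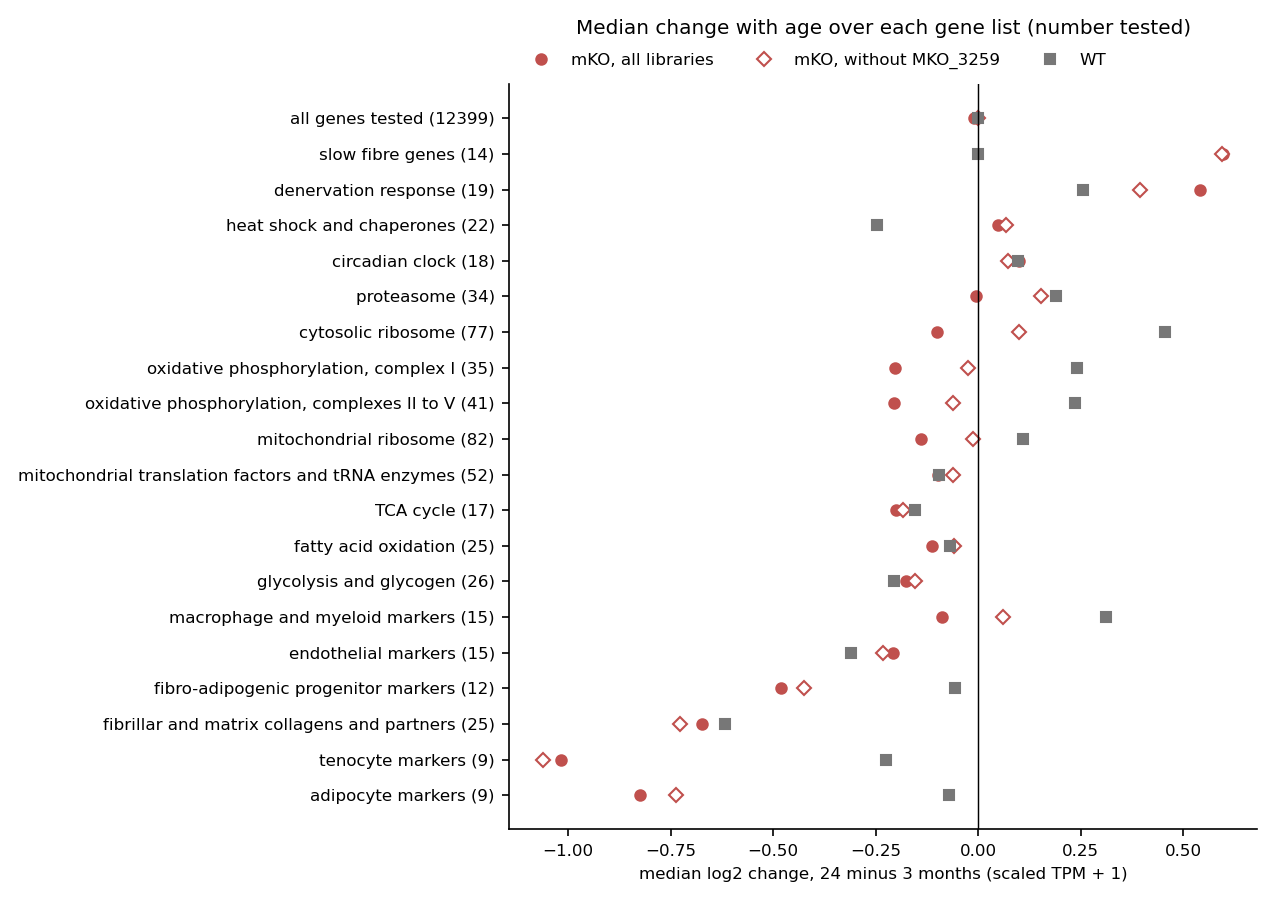
Median log2 change with age over 19 gene lists and all genes tested, for mKO with all libraries (filled circles), mKO without MKO_3259 (open diamonds) and WT (squares), with the number of genes in brackets. Leaving out MKO_3259 moves the medians of complex I from -0.20 to -0.03 and of the cytosolic ribosome from -0.10 to 0.10, and leaves those of the matrix list (-0.67 and -0.73) and the slow-fibre list (0.60 and 0.59) close to where they were.

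Clock genes rose in part. Of 18 tested 5 rose and none fell, with a median of 0.10, and 3 rose without MKO_3259 or MKO_3265. The labels give no time of day for the dissections. Ciart, a repressor of the clock, is shown with its promoter (chr3:95882179-95882478, minus strand, printed 5′ to 3′, GRCm38.p6, RefSeq), where capitals mark the sequence CACGTG, the E-box that CLOCK and BMAL1 bind.
Ciart: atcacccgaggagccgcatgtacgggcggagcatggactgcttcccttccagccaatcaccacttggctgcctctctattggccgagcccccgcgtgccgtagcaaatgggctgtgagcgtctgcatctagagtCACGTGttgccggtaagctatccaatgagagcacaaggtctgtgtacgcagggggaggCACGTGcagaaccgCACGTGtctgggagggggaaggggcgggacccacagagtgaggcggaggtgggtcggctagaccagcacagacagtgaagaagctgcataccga
It holds 3 copies; 7.15% of all windows hold at least 1 and 29 of 32851 hold 3 or more. Of the 4 risers with a promoter entry, Ciart and Per1 hold a copy. Ciart measured 3, 7.56, 2.42, 4.2 and 1.3 scaled TPM at 3 and 5.25, 7.8 and 9.93 at 24 months, with MKO_3248 inside the old range (0.97 ± 0.24, adjusted p = 0.00714). Cry2, another repressor, measured 7.14, 9.13, 6.84, 7.55 and 6.21 at 3 and 12.5, 13.2 and 14 at 24 months, with the ages far apart (0.78 ± 0.09, adjusted p = 5.1e-08). Per1 changed by 0.98 ± 0.29 (adjusted p = 0.0231), and was not called without MKO_3259, MKO_3265 or MKO_SO_32. Per3 and Bhlhe40 rose by 0.53 ± 0.16 and 0.59 ± 0.15, and Per3 was not called without MKO_3259, MKO_3265, MKO_SO_68 or MKO_SO_70.

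Genes of cell cycle arrest and p53 gave 4 rises and 1 fall among 20 tested (3 and 1 without MKO_3259). Eda2r, a death receptor regulated by p53, measured 4.77, 5.1, 3.3, 2.47 and 4.1 scaled TPM at 3 and 8.48, 9.24 and 9.61 at 24 months. The old libraries lay close together, all above the young ones (1.07 ± 0.15, adjusted p = 5.4e-06). Cdkn1a, the inhibitor p21, measured 6.3, 8.36, 3.95, 4.93 and 4.68 at 3 and 9.78, 12 and 15.6 at 24 months (1.04 ± 0.23, adjusted p = 0.00277), and Gadd45a rose by 0.80 ± 0.16 (adjusted p = 6.7e-04). Cdkn1b, the inhibitor p27, changed by -0.46 ± 0.07 (adjusted p = 9.1e-06). Of 22 heat shock genes and chaperones 4 rose and 2 fell (6 and 2 without MKO_3259). The risers were small heat shock proteins of muscle and their partner: Hspb7, Hspb6 (0.49 ± 0.08), Cryab (0.62 ± 0.13) and Bag3 (0.37 ± 0.09). Cryab shares 252 bases with its neighbour Hspb2. The fallers were the mitochondrial chaperones Hspd1 (-0.28 ± 0.06) and Hspa9 (-0.24 ± 0.07), Hspd1 having a copy, Hspd1-ps3, that shares 1722 of 2423 bases.

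Of 20 atrophy genes 3 rose and 1 fell (2 and 1 without MKO_3259), and the ubiquitin ligase genes Fbxo32 (0.42 ± 0.11, adjusted p = 0.00958) and Trim63 (0.05 ± 0.12, adjusted p = 0.85) stood on either side of the threshold. Without MKO_3247 or MKO_SO_70 1 gene of that list rose. Mstn, myostatin, was the faller (-0.30 ± 0.10, adjusted p = 0.0394), and was called in 2 of the 11 fits with 1 library left out, those without MKO_3259 and MKO_SO_87. Growth-related genes included Igf1, which fell from 3.79 ± 1.9 to 1.85 ± 0.312 scaled TPM (-0.68 ± 0.17, adjusted p = 0.00903), and the imprinted non-coding RNAs Meg3 and Rian, which changed by -0.61 ± 0.12 and -0.92 ± 0.15 (adjusted p = 7.1e-04 and 6.0e-05) with no overlap. Nrep, a regulator of tissue repair, and Mlf1 were also among the 15 largest falls, Nrep from 45.2 ± 6.57 to 19.7 ± 1.28 scaled TPM (-1.15 ± 0.15) and Mlf1 from 213 ± 67.3 to 92.1 ± 7.38 (-1.15 ± 0.17).

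Macrophage markers gave no call, whereas some endothelial markers fell. None of 15 macrophage and myeloid markers passed limma's test, with or without MKO_3259 (medians -0.09 and 0.06), and their sums were 56.5 to 97.4 scaled TPM at 3 and 52.2 to 73.2 at 24 months. Of 17 lymphocyte markers 3 were measured above the filter, and T cell markers such as Cd3e and the B cell marker Cd79a were below it. Igkc, the immunoglobulin κ constant region of antibody-producing cells, measured 0.507, 0.559, 0.785, 1.32 and 0.513 scaled TPM and 6.34, 25 and 50.3, with no overlap (3.60 ± 0.68, adjusted p = 4.1e-04). Jchain did not pass (0.91 ± 0.31, adjusted p = 0.056). One of 16 antigen presentation genes rose, H2-Aa (0.44 ± 0.15, adjusted p = 0.045), and 3 rose without MKO_3259; none did without MKO_3247, MKO_3248, MKO_3251, MKO_SO_85, MKO_SO_87 or MKO_SO_70. Of 15 endothelial markers 4 fell and none rose (6 and 0 without MKO_3259), 14 of the 15 changes were negative, and 4.96% of all genes fell. Their summed level was 263.8 to 408.2 scaled TPM at 3 months, highest in MKO_3259, and 221.4 to 244.1 at 24 months, with no overlap. In WT 8 of these markers fell (median -0.31, against -0.21 in mKO), and none passed the test of the difference. The fallers in mKO included Tie1 (-0.31 ± 0.06, adjusted p = 2.2e-04) and the apelin receptor Aplnr. Aplnr measured 4.27, 1.81, 2.48, 17 and 5.55 at 3 and 0.768, 1.1 and 1.6 at 24 months, with MKO_3259 far above its group, and its change of -1.45 ± 0.33 was -1.04 without it (adjusted p = 0.00347 and 0.0191).

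The change with age in mKO was tested against that in WT muscle, which shares no library with it. In WT 1409 genes rose (11.4%) and 1403 fell (11.3%). On TPM as deposited, with no scaling between libraries, 461 rose and 5423 fell in WT, and the median change of all genes was -0.23 in place of 0.00, so that the balance in WT, and the genes shared with it, depend on the scaling. Both groups had 337 rising genes in common, 44.8% of those in mKO and 23.9% of those in WT, and 256 falling ones, 41.6% and 18.2%. The change was higher in mKO than in WT for 307 genes (2.48%) and lower for 234 (1.89%). Without MKO_3259 these were 205 (1.65%) and 131 (1.06%). The 2 counts were 486 and 457 without MKO_3248 and 186 and 114 without WT_2, 500 and 511 without the transgenic library MCK_SO_17 (which is in neither group but in the shared fit), and the lower count was 145 to 147 without WT_4, WSO_15 or MKO_SO_85.

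Genes with a higher change in mKO included several of the risers above. Igfn1 changed by 2.62 ± 0.27 in mKO and 0.98 ± 0.26 in WT, a difference of 1.64 ± 0.38 (adjusted p = 0.0129), and Cyfip2 by 1.60 ± 0.17 and 0.44 ± 0.16 (1.16 ± 0.23, adjusted p = 0.00575). Of the denervation list 3 genes passed with a higher change in mKO and 0 with a lower one (2 and 0 without MKO_3259), among them Chrna1 (difference 0.77 ± 0.21, adjusted p = 0.031, and 0.0528 without MKO_3259) and Myh3 (0.80 ± 0.20, adjusted p = 0.0216). In WT 7 of the 19 denervation genes also rose with age and 2 fell. The median change of that list was 0.54 in mKO, 0.26 in WT and 0.28 in mTG. Lmod2 was the 1 slow-fibre gene of 14 that passed (1.13 ± 0.28, adjusted p = 0.0193), and 2 passed without MKO_3259. Over that list the median was 0.60 in mKO, 0.00 in WT and 0.34 in mTG. For several genes the difference came with a negative change in WT. Ubr4, a large ubiquitin ligase, changed by 0.22 ± 0.10 in mKO and -0.75 ± 0.09 in WT (adjusted p of the difference = 2.2e-04), the sarcomere gene Myom2 by 0.06 ± 0.06 and -0.44 ± 0.06 (adjusted p = 0.00188), and Dync1h1, the dynein heavy chain, by -0.15 ± 0.12 and -1.12 ± 0.12 (adjusted p = 0.00242).

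Genes with a lower change in mKO included 2 of 9 tenocyte markers tested, 1 of 9 adipocyte markers and 3 of 12 progenitor markers. Without MKO_3259 these counts were 2, 0 and 0. They also included 5 of 35 complex I genes and 4 of 41 genes of complexes II to V (2 and 1 without MKO_3259), against 1.89% of all genes. In WT 12 complex I genes rose and 0 fell, and 9 of complexes II to V rose and 1 fell. Both medians in WT were 0.24. Cyp2e1, which also passed, is in none of these lists. Cfd changed by -1.88 ± 0.39 in mKO and 0.11 ± 0.38 in WT (difference -1.99 ± 0.55, adjusted p = 0.0328), Cyp2e1 by -1.95 ± 0.37 and -0.07 ± 0.35 (-1.88 ± 0.51, adjusted p = 0.0323). Neither difference passed without MKO_3259, at -1.72 for Cfd and -1.68 for Cyp2e1 (adjusted p = 0.0756 and 0.0712). Kera changed by -1.60 ± 0.15 and -0.56 ± 0.14 (-1.04 ± 0.21, adjusted p = 0.00575), and Tnmd by -1.27 ± 0.19 and -0.22 ± 0.19 (-1.05 ± 0.27, adjusted p = 0.0252). The type I collagen genes gave differences near 0: 0.03 ± 0.19 for Col1a1 and -0.07 ± 0.22 for Col1a2 (adjusted p = 0.955 and 0.886). Of the 25 matrix genes 15 also fell in WT and 1 rose, and 2 passed with a lower change in mKO and 0 with a higher one. The median change of that list was -0.67 in mKO, -0.62 in WT and -0.80 in mTG. Dcn, decorin, changed by -0.30 ± 0.08 in mKO and 0.25 ± 0.08 in WT (adjusted p = 0.00566). Gatb fell in mKO and changed by 0.09 ± 0.10 in WT (difference -0.67 ± 0.15, adjusted p = 0.0104). The smallest adjusted p belonged to Dynlt1b, a dynein light chain, with -0.51 ± 0.10 and 0.77 ± 0.09 (adjusted p = 7.2e-07), whose transcript matches Dynlt1c, Dynlt1f and Dynlt1a along all 771 bases at 98.8 to 99.2% identity, so that its level is uncertain. Of 77 cytosolic ribosomal protein genes none rose or fell in mKO (medians -0.10, and 0.10 without MKO_3259), 49 rose in WT (median 0.46), and 12 passed with a lower change in mKO (3 without MKO_3259), Rps7 among them (-0.80 ± 0.16, adjusted p = 0.00575; several pseudogenes share over 580 of its 954 bases).

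**Figure D4:**
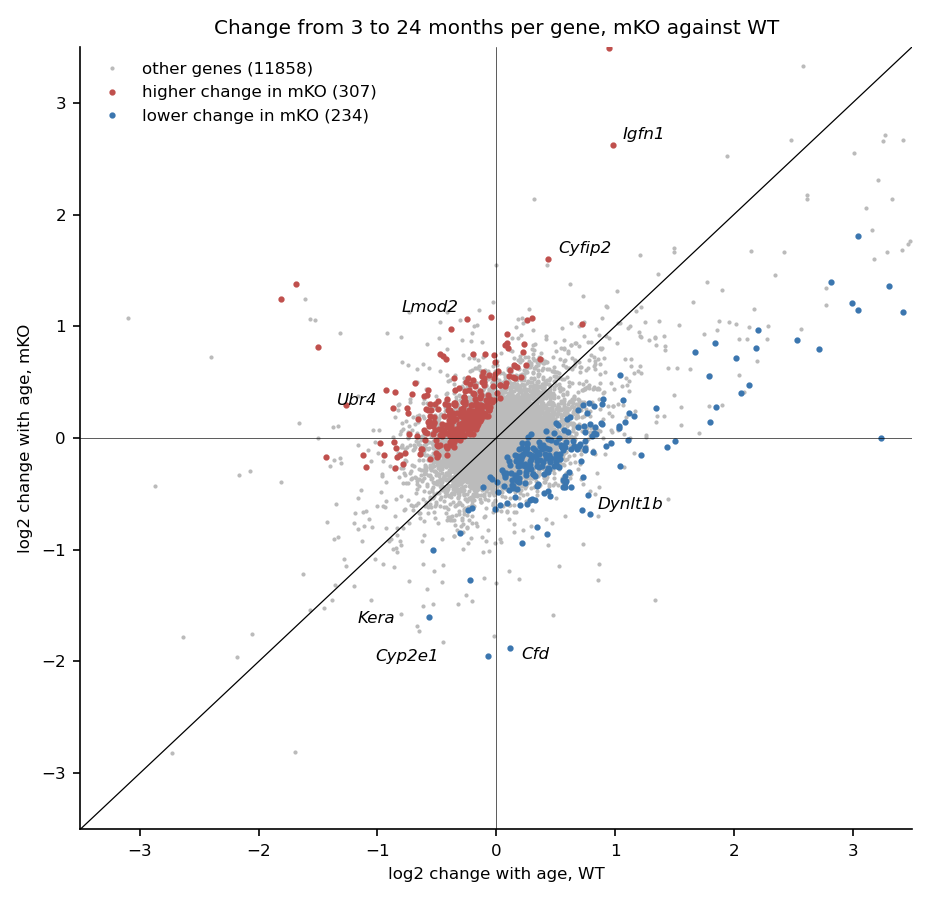
Log2 change with age of each gene in mKO (vertical) against WT (horizontal), with genes whose change differed at an adjusted p under 0.05 in red (307, higher in mKO) and blue (234, lower in mKO), and the line of equal change. Igfn1 and Cyfip2 lie above the line, Cfd, Cyp2e1, Kera and Dynlt1b below it, and 34 genes fall outside the plotted range.

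The difference between the genotypes moved with transcript length. Over 10876 genes the change with age had a Spearman rho with transcript length of 0.277 in mKO, -0.0149 in mKO without MKO_3259 and -0.249 in WT, and the difference between mKO and WT one of 0.417, or 0.242 without MKO_3259. Genes are not independent replicates, and these are descriptions. In the shortest of 10 equal length classes (median 1039.5 bases) the median change was -0.11 in mKO, 0.02 without MKO_3259 and 0.20 in WT, and in the longest class (8185 bases) 0.08, 0.02 and -0.02. The longest transcripts of Rps7 and Dynlt1b, whose change with age was lower in mKO than in WT, have 954 and 771 bases, and those of Ubr4 and Dync1h1, whose change was higher in mKO, 15928 and 14342. The part of transcript length in these differences was not tested.

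**Figure D5:**
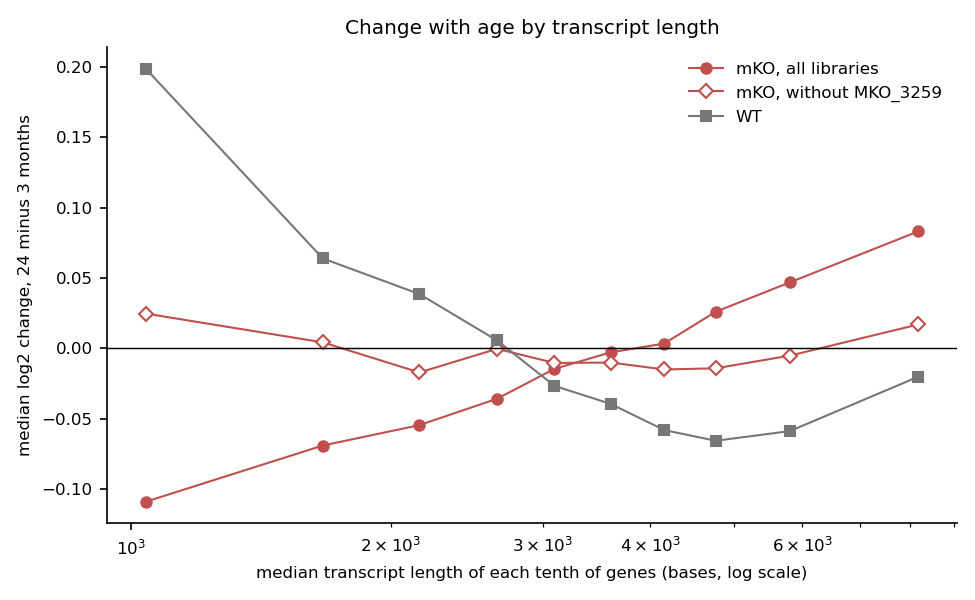
Median log2 change with age in each of 10 length classes of genes (log axis, bases), for mKO with all libraries, mKO without MKO_3259 and WT. The mKO line rises from -0.11 to 0.08 with all libraries and stays between -0.02 and 0.02 without MKO_3259, and the WT line falls from 0.20 to below 0.

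Against transgenic muscle, which also shares no library with mKO, the change with age was higher in mKO for 320 genes (2.58%) and lower for 207 (1.67%). These counts depended on single libraries. The higher count was 553 without MKO_3248, 130 without MKO_3259 and 129 without MCK_SO_17, and 173 to 212 without MCK_3875, MCK_3876, MCK_3890, MCK_SO_59, MKO_SO_32, MKO_SO_85, MKO_SO_87 or MKO_SO_68. The lower count was 461 without MKO_3248, 332 without MCK_SO_82, 324 without MCK_SO_31, 80 without MKO_3259 and 87 without MCK_SO_17, and 100 to 131 without the same 8 libraries. No single gene of this comparison is described for that reason.

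Single libraries carried parts of the mKO result to different degrees. Leaving out each of the 11 mKO libraries in turn gave 613 to 817 rising and 484 to 731 falling genes. Of the 164 genes named by rule, 154 were called with all libraries, and 107 of these were called in all 11 of these fits. The rule takes mostly genes already called with all libraries, so the 154 follows largely from the rule. The 107 describes genes picked in these same libraries and not all called genes. The denervation list had 9 to 10 rises, the slow-fibre list 5 to 7 rises, and the matrix list 20 to 22 falls in these fits, counts that do not show whether the called members were the same. The counts of the respiratory chain, the mitochondrial ribosome and the TCA cycle varied more, at 0 to 7, 1 to 7 and 2 to 9 falls. With MKO_3259 left out and no scaling between libraries, 469 genes rose and 736 fell, so that the balance of rises and falls then turned.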

How the data were processed

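RNA-seq libraries were made from total RNA of gastrocnemius with a kit that does not mark strand, per the labels' protocols, so sense and antisense reads cannot be told apart. The submitters' processing notes name cutadapt 1.16, Salmon 1.1.0, edgeR and the genome build GRCm38, without saying how each was used. The authors deposited 1 table of TPM per gene for 35 libraries, scaled to the same total in each column. Depth is unknown: TPM does not keep it, and intervals for counting error could not be computed. Columns were assigned to groups by their name prefixes. The column names carry no replicate number of the labels.

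From these values, genes with a TPM of at least 1 in at least 5 columns were kept (12399). They were scaled by median of ratios and tested as log2(TPM + 1) with limma 3.58.1 (R 4.3.3, trended variance, 1 mean per group over all 35 libraries, Benjamini-Hochberg adjustment over all genes, threshold 0.05). RNA class shares used a 2-sided exact permutation test. P-values treat each library as the unit. Those from limma use a spread between libraries that was estimated over all 35, not that of the mKO groups alone. The fit was tested on simulated data with known changes and independent noise per gene. These held no library like MKO_3259 and no rRNA share tied to age, so the simulation cannot speak to either. Gene classes and lengths came from the GENCODE annotation of the same build, promoters from RefSeq, and shared stretches from blastn 2.17.0. The members and gene lists were chosen with earlier results of these data known. Genes are named where they are Ppargc1a, among the 15 largest rises or falls of called protein-coding genes with a group mean of at least 5 scaled TPM and no overlap, among the 4 largest non-coding rises, among up to 6 called members of a list, or among the 8 per direction with the smallest adjusted p for the difference from WT. List members that did not pass are given as values. Some results are not reported here. Of the 164 genes this rule takes, 53 share a stretch of at least 100 bases at 95% identity or more with another gene. Alternatives covered scaling, filters, pseudocount, libraries in the fit, array weights, the rRNA share, a fold minimum of 1.5 and each library left out.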

Additional observations from a re-analysis of the deposited data

Results flagged for a closer look

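In 25 of 334 groups of values, covering RNA class shares and genes named by rule, 1 library stood far from the others of its group. Chance gives such a flag in about 1 in 20 groups. The library was MKO_3259 at 3 months in 15 groups and another in 10. In MKO_3259 these were the share of other small RNA (0.0103% of TPM) and, in scaled TPM, Krt18 (0.527), Ttn (73.0), Aplnr (17.0), n-R5s100 (4.34), Rn7s1 (75.8), Ppib (42.2) and Pgam2 (3148). They were also Ndn (1.99), Igf2r (3.57), Igfbp6 (35.2), Ifitm2 (35.2), Bpgm (64.8), Fabp4 (243) and Gsn (345). The other 10 are likewise in scaled TPM. In MKO_3248 it was Ppargc1b (1.43). In MKO_SO_23 it was Rps7 (67.6). In MKO_SO_32 it was Cd34 (16.7). In MKO_SO_68 they were Mef2c (109), Dnajb9 (22.4) and Dync1h1 (44.8). In MKO_SO_70 they were Mrpl42 (192) and Idh3b (212). In MKO_SO_85 it was Pnpla3 (3.47). In MKO_SO_87 it was Igfbp6 (16.1).

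For 38 genes named by rule the change with age differed between mKO and WT by limma's test of the difference itself (adjusted p under 0.05). Part of the naming rule takes, in each direction, the genes with the smallest adjusted p in this same test. Those genes are among the 38 because of how they were picked, so the 38 is not an independent count. Over all 12399 genes tested, the change was higher in mKO than in WT for 2.48% and lower for 1.89%. The difference of the log2 changes, mKO minus WT, was 1.64 for Igfn1, 1.36 for Per1, 1.16 for Cyfip2, 1.13 for Lmod2, 0.97 for Dync1h1, 0.97 for Ubr4 and 0.96 for Wfs1. It was 0.80 for Myh3, 0.77 for Chrna1, 0.76 for Ampd3, 0.66 for Igf2r, 0.64 for Bag3, 0.56 for Lrba and 0.50 for Acacb. Smaller differences were 0.50 for Myom2, 0.41 for Hspb6, 0.39 for Gys1 and 0.37 for Eif3c. Negative differences were -1.99 for Cfd, -1.88 for Cyp2e1, -1.29 for Selenom, -1.29 for Ifi27l2a, -1.28 for Dynlt1b, -1.16 for Nmrk2 and -1.05 for Tnmd. Others were -1.04 for Kera, -0.94 for Rab4a, -0.93 for Tdrp, -0.80 for Rps7, -0.80 for Igfbp6, -0.67 for Gatb and -0.63 for Dpt. The remaining ones were -0.55 for Dcn, -0.51 for Idh1, -0.47 for Sptssa, -0.42 for Cd248, -0.42 for Ndn and -0.40 for Ifitm2. Without MKO_3259, 10 of the 38 no longer passed: Cfd (adjusted p = 0.0756), Cyp2e1 (adjusted p = 0.0712), Ifi27l2a (adjusted p = 0.0834), Nmrk2 (adjusted p = 0.0548), Dpt (adjusted p = 0.0559), Cd248 (adjusted p = 0.0680), Ndn (adjusted p = 0.0613), Ifitm2 (adjusted p = 0.0737), Chrna1 (adjusted p = 0.0528) and Per1 (adjusted p = 0.0995).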

How the results depend on the processing

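The counts of rising and falling genes in mKO (752 and 615) stayed within 1.5 times under quantile normalization, a pseudocount of 0.1, protein-coding genes only, no filter, array weights and unscaled TPM. They were 378 and 395 with a mean of at least 5 TPM, 412 and 313 with only the compared groups in the fit, 49 and 9 with a fold minimum of 1.5, and 14 and 9 with the log2 rRNA share as covariate. Leaving out 1 library gave 613 to 817 rises and 484 to 731 falls. Further choices were added after seeing the data. Unscaled TPM without MKO_3259 gave 469 rises, and single libraries were also left out of the comparison with mTG. The counts higher and lower in mKO than in WT (307 and 234) were 2996 and 108 on unscaled TPM, 470 and 377 with quantile normalization, 179 and 132 with no filter, 606 and 577 with array weights, 124 and 56 with the rRNA share, 1 and 3 with the fold minimum, and 1919 and 89 on unscaled TPM without MKO_3259; single WT or mKO libraries left out gave 186 to 486 and 114 to 457. Against mTG (320 and 207) they were 101 and 66 unscaled, 160 and 101 with no filter, 119 and 73 with only the compared groups, 203 and 127 with array weights, 58 and 47 with the rRNA share, 2 and 2 with the fold minimum, and 56 and 45 unscaled without MKO_3259; single libraries left out gave 129 to 553 and 80 to 461. The causes of these moves were not tested. The log2 difference of the nuclear protein-coding share was -0.145 and passed when mitochondrial genes were left out of the total; with 1 library left out it was -0.173 to -0.0808, and that of mitochondrial protein genes -0.257 to -0.0406. Under the rRNA covariate the change turned sign for Ttn (-0.109), Gm24089 (-4.16), Mrpl1 (0.045), Rmnd1 (0.147), Dld (0.036) and Gsr (-0.071). Besides these, 137 of the 154 named genes called without the covariate kept their sign but lost their call. With 1 library left out, 1584 gene results kept their side of the threshold and 220 did not. No paired analysis was possible because the column names carry no replicate number of the labels. Depth is unknown, so what it limits cannot be given.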

Other observations

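Other gene groups gave smaller counts. Of 20 further muscle metabolic and stress regulators 4 rose and 2 fell (5 and 1 without MKO_3259). Besides Mss51 and Igfn1 these were Ampd3, an AMP deaminase (0.85 ± 0.13, adjusted p = 2.3e-05), Junb, a transcription factor of the AP-1 family (0.76 ± 0.18, adjusted p = 0.00505), Nmrk2, a nicotinamide riboside kinase of muscle (-0.94 ± 0.22, adjusted p = 0.00336), and Mettl21c, a muscle lysine methyltransferase (-0.92 ± 0.24, adjusted p = 0.0117, not called without MKO_3259). Among 13 imprinted genes Nnat rose (0.68 ± 0.16, adjusted p = 0.00338), as did Igf2r (0.43 ± 0.11, adjusted p = 0.0117, not called without MKO_3259), and Ndn fell (-0.35 ± 0.08, adjusted p = 0.00379), besides Meg3 and Rian. In insulin and growth factor signalling 3 of 23 rose and 2 fell (1 and 3 without MKO_3259), among them the receptor adaptor Grb14 (0.60 ± 0.15, adjusted p = 0.0062) and Igfbp6, which binds insulin-like growth factors (-0.60 ± 0.15, adjusted p = 0.00707).

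Of 23 interferon response genes 3 fell and none rose (2 and 2 without MKO_3259): Gbp7 (-0.59 ± 0.12, adjusted p = 0.00108), Ifitm2 (-0.39 ± 0.08, adjusted p = 9.4e-04, with copies that share up to 432 of its 655 bases) and Ifi27l2a (-0.86 ± 0.26, adjusted p = 0.0279, not called without MKO_3248, MKO_3259, MKO_SO_68 or MKO_SO_70). Of 28 antioxidant genes Gsr and Nqo1 rose and none fell (5 and 0 without MKO_3259), Gsr not being called without MKO_3251 nor Nqo1 without MKO_3265. Without MKO_3248 2 antioxidant genes fell, and without MKO_3251, MKO_SO_85 or MKO_SO_70 1 did. Of 27 autophagy and lysosome genes Wipi1 rose and Ctsb fell (5 and 1 without MKO_3259, 2 rises without MKO_SO_32 and 2 falls without MKO_3248). None of 34 proteasome genes passed with all libraries, while 3 rose without MKO_3259 and 1 fell without MKO_3251. None of 12 satellite cell and myogenic markers passed in either fit, and the satellite cell factor Pax7 was below the filter.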
